A study of Mus musculus with 6 samples.

Results

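The genes described here are 10 chains of cytokine receptors that T cells carry: Il2rb, Il2rg, Il4ra, Il7r, Il21r, Il6ra, Il6st, Il27ra, Il10ra and Il18r1. They were chosen by name, with earlier results of these data known. Their probe sets, the groups of short array probes that measure 1 transcript, were taken from the platform annotation. It assigned 19 probe sets to 9 of the chains, out of 45037 probe sets tested. No probe set was assigned to Il2rg, the common gamma chain, so it has no value here. T cells were isolated from single spleens of male C57BL/6 mice aged 10 weeks by removing other cells. Of 6 Affymetrix arrays, 3 came from mice that lack miR-142 (KO) and 3 from wild-type littermates (WT). The KO label names no promoter or Cre, and the WT mice carry no stated allele. Values are log2 intensities, on which a difference of 1 is a doubling.

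A cytokine receptor passes a signal when its ligand brings chains together at the cell surface. Il2rb, Il4ra, Il7r and Il21r pair with the common gamma chain, Il6ra and Il27ra with Il6st (gp130), and all of these use JAK kinases and STAT factors. Il10ra binds IL-10 and pairs with Il10rb. Il18r1 belongs to the IL-1 receptor family, pairs with Il18rap and signals through Myd88. In resting T cells the IL-7 receptor supports survival, and the chains for IL-2, IL-4, IL-6, IL-21 and IL-27 shape activation and helper fate.

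The KO mice lack the microRNA gene from which a pair of mature strands is made. They are shown from RefSeq (GRCm38.p6) with the seed, bases 2 to 8, in capitals, since the seed is what a microRNA uses to find its targets. The 5p strand lies at chr11:87756867-87756887 and the 3p strand at chr11:87756903-87756925, both on the plus strand.
mmu-miR-142a-5p: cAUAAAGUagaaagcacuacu
mmu-miR-142a-3p: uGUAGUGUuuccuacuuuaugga
The seeds differ. In mouse myeloid cells Il6st has been reported as a target of the 3p strand. The mature strands were not measured. The probe set listed as Mir142, the host transcript, read 5.97, 5.88 and 5.90 in the KO arrays, against 7.93, 8.13 and 7.67 in the WT arrays. It was lower in every KO array (limma adjusted p = 6.6e-05), but whether it lies in the deleted part was not known.

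Promoters are shown for 3 chains because their probe sets moved differently. Il7r fell by over 2, Il21r fell by an intermediate amount, and the brightest probe set of Il6st did not pass the test. RefSeq (GRCm38.p6) gave 300 bases, from 250 before to 50 after the start, for 7 of the 10 chains. Capitals mark TGTGGT, the core recognised by RUNX factors, TTCNNNGAA, the STAT core, and CCGGAA, an ETS core, each searched on both strands. The Il7r promoter is chr15:9529827-9530126 on the minus strand, the Il21r promoter chr7:125603179-125603478 on the plus strand and the Il6st promoter chr13:112463820-112464119 on the plus strand.
Il7r: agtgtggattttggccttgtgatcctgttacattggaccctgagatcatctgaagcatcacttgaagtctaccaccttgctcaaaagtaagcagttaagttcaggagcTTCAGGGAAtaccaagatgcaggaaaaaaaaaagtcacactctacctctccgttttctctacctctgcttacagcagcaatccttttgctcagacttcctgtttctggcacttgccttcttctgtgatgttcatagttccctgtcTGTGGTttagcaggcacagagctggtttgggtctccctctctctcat
Il21r: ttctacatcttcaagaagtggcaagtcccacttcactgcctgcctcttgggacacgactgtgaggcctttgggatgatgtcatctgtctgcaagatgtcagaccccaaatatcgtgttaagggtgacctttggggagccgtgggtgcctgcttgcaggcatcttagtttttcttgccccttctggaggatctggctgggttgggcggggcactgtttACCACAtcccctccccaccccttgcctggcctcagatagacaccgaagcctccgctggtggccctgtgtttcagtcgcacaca
Il6st: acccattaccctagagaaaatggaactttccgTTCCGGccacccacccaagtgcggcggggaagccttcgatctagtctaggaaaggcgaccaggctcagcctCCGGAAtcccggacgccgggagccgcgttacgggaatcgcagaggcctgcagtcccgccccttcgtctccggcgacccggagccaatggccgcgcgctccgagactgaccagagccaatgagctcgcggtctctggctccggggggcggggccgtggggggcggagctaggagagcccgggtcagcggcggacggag
The RUNX letters stood in the Il7r and Il21r windows, in those of Il2rg and Il18r1, which are not shown, and in 16.8% of all 32851 promoters of the same length. The STAT letters stood in the Il7r window, in another window of Il18r1 and in 8.3% of all promoters. The ETS letters stood at 2 places of the Il6st window, in that of Il2rg and in 14.9% of all promoters. The marked matches did not overlap each other. A match is a description of the letters and no evidence that a factor binds there.

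The arrays differed in markers of T cells and of other cells. Of all genes at their brightest probe set, 18.6% fell and 18.6% rose. T cell markers fell for 10 of 10 measured genes, and their mean level was 8.99 to 10.39 in KO arrays and 11.85 to 11.89 in WT arrays. Cd3d, Cd3e and Cd3g, chains of the T cell receptor complex, fell by 1.74 ± 0.35, 1.66 ± 0.36 and 1.51 ± 0.30 (SE, n = 3 per group; limma adjusted p = 0.00874, 0.0125 and 0.00758), Cd3e with an adjusted p of 0.052 without WT replicate 1. Neutrophil markers rose for 10 of 13 genes (mean level 9.54 to 12.28 in KO, 6.00 to 6.99 in WT) and mast cell, basophil and eosinophil markers for 11 of 11 (10.16 to 10.71 in KO, 6.04 to 6.20 in WT). Monocyte and macrophage markers rose for 9 of 11 (8.31 to 8.82 in KO, 5.77 to 6.08 in WT), dendritic cell markers for 4 of 9 (7.21 to 7.66 in KO, 6.58 to 6.76 in WT) and erythroid markers for 9 of 9 (10.05 to 11.12 in KO, 7.29 to 7.73 in WT). NK cell markers fell for 6 of 11 (7.81 to 8.82 in KO, 9.17 to 9.43 in WT), and 1 of 10 B cell markers, Blnk, rose (6.45 to 7.58 in KO, 6.00 to 6.43 in WT), which did not pass once WT replicate 2 or 3 was removed. Myeloid cells also express Il4ra, Il6ra, Il6st and Il10ra, and NK cells Il2rb and Il18r1. The part of these other cells in the receptor values was not tested. RMA values have no zero, so no marker can be called absent. KO replicate 2 stood apart with the lowest T cell marker mean, 8.99 against 10.27 and 10.39 in KO replicates 1 and 3, so the main counts are also given without it.

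The receptor chains were lower in KO in most probe sets. Of the 19 probe sets, 13 fell (limma adjusted p below 0.05 over all probe sets), 0 rose and 6 did not pass the test. Among all probe sets 15.5% fell and 13.9% rose. At the brightest probe set of each gene, 7 of the 9 chains fell and 0 rose, against 18.6% of all genes in each direction. The chains and the lists below were chosen with earlier results known, so such shares describe them and do not test them. The median difference of the 19 probe sets was -1.04, against -0.08 over all probe sets. In 15 of the 19 every KO array lay below every WT array, as in 27.4% of all probe sets, and in the other 4 the groups overlapped. Without KO replicate 2, 14 probe sets and 8 chains fell, the added one being the brightest probe set of Il6st. The share of all probe sets that fell without that array is not given here. Il6st and Il10ra were the chains whose brightest probe set did not pass. After scaling to the hybridization controls, bacterial and phage transcripts added in fixed amounts, 9 of the 19 fell, against 5.19% of all probe sets. Fewer T cells in the preparation and less receptor RNA per cell cannot be told apart in such bulk samples.

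**Figure D1:**
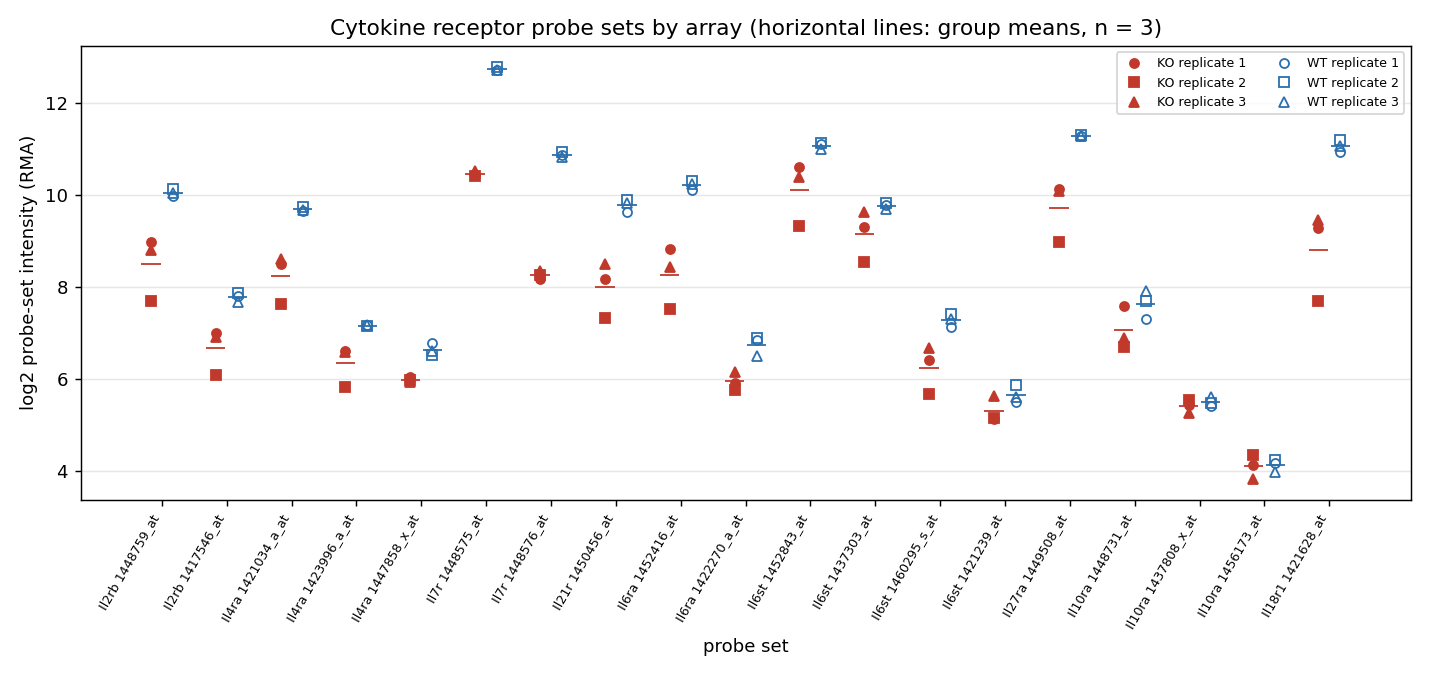
Log2 intensity of each of the 19 receptor probe sets (horizontal axis) in the 3 KO arrays (red, left) and the 3 WT arrays (blue, right), with the group means as lines. KO replicate 2 is the lowest KO array at the brightest probe set of each chain, Il7r shows almost no spread within KO, and the probe sets of Il10ra overlap between the groups; levels of different probe sets are not comparable.

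Il7r, the IL-7 receptor chain that naive T cells depend on, fell by about as much as Il18r1 at the brightest probe set, with differences of -2.29 and -2.26. Their order turned without KO replicate 1 or 3 or WT replicate 1. At its brightest probe set (1448575_at) it read 10.43, 10.42 and 10.53 in KO arrays 1 to 3, against 12.72, 12.80 and 12.73 in the WT arrays. The groups were far apart, and the spread was small in both, with SDs of 0.06 in KO and 0.04 in WT (n = 3 each). It fell 4.88-fold, by 2.29 ± 0.08 (SE, n = 3 per group; limma adjusted p = 1.18e-05). Its other probe set (1448576_at) read 8.18, 8.26 and 8.34 in KO and 10.87, 10.94 and 10.82 in WT, a 6.14-fold fall (limma adjusted p = 1.07e-05). KO replicate 2 differed from the mean of the other KO arrays by -0.06 and 0.01 at these probe sets, while in Il2rb, Il4ra, Il21r, Il6ra, Il6st, Il27ra and Il18r1 the gap at the brightest probe set ran from -1.67 to -0.94. B cell progenitors also carry the IL-7 receptor, and the 10 measured B cell markers were mixed in KO replicate 2, which had the highest KO value for 6 of them and the lowest for 4. Ebf1, the early B cell factor, read 5.91, 11.22 and 5.64 in KO and 4.62, 4.59 and 4.70 in WT, and Cd79a, a chain of the B cell receptor complex, read 6.58, 9.40 and 6.18 in KO and 6.29, 5.95 and 5.65 in WT. Blnk, Cd79b, Pax5 and Cd22 were also highest there among the KO arrays. Ms4a1, the CD20 antigen of mature B cells, read 8.80, 5.89 and 7.71 in KO and 7.79, 6.82 and 6.49 in WT, and Fcrla, Blk and Cr2 were likewise lowest there. The part of B lineage cells in the Il7r values was not tested. Over 16 alternatives the difference at the brightest probe set ran from -2.34 to -1.92, and it was -2.27 without KO replicate 2.

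Il2rb, the chain shared by the IL-2 and IL-15 receptors, read 8.98, 7.70 and 8.79 in KO and 9.98, 10.12 and 10.04 in WT (1448759_at). Its groups did not overlap, with KO replicate 2 well below the other KO arrays. It fell by 1.56 ± 0.31 (SE, n = 3 per group; limma adjusted p = 0.00786), a 2.94-fold change, and its other probe set fell by 1.11 ± 0.24. Il4ra, which binds IL-4, read 8.50, 7.62 and 8.61 in KO and 9.66, 9.74 and 9.67 in WT (1421034_a_at), and fell by 1.45 ± 0.24 (limma adjusted p = 0.00402). Its 2 dimmer probe sets fell by 0.82 ± 0.20 and 0.65 ± 0.10. The first of these did not pass with any one WT replicate removed, with limma adjusted p from 0.062 to 0.068. Il21r, which binds IL-21, read 8.17, 7.32 and 8.49 in KO and 9.62, 9.90 and 9.83 in WT (1450456_at), so every KO array was lower by more than 1. It fell by 1.79 ± 0.28 (limma adjusted p = 0.0027). Il4ra and Il21r are neighbours on chromosome 7, with promoters at chr7:125552021-125552320 and chr7:125603179-125603478, both on the plus strand.

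In the gp130 family Il6ra, the IL-6 binding chain, read 8.83, 7.51 and 8.44 in KO and 10.11, 10.29 and 10.23 in WT (1452416_at). All KO arrays were lower by more than 1, and the fall was 1.95 ± 0.30 (SE, n = 3 per group; limma adjusted p = 0.0027), or 3.86-fold. Its dimmer probe set fell by 0.80 ± 0.14. Il27ra, which binds IL-27, read 10.13, 8.97 and 10.08 in KO and 11.28, 11.30 and 11.29 in WT (1449508_at). It fell by 1.56 ± 0.29 (limma adjusted p = 0.00609), with WT arrays that hardly differed from each other. Il6st, the signalling chain that both share, read 10.60, 9.33 and 10.40 in KO and 11.10, 11.13 and 10.99 in WT (1452843_at). All KO arrays were lower, yet the difference of -0.97 missed the threshold narrowly (limma adjusted p = 0.0501, 95% interval -1.68 to -0.25). It passed without KO replicate 1 (-1.21, adjusted p = 0.027), without KO replicate 2 (-0.57, adjusted p = 0.0057), after median centring, with array weights and without dim probe sets, and over all alternatives its adjusted p ran from 0.0057 to 0.18. Of its other probe sets, 1460295_s_at fell by 1.04 ± 0.24 but did not pass once WT replicate 2 or 3 was removed (adjusted p = 0.062 and 0.052), and it may cross-hybridise with related sequences. The probe sets 1437303_at and 1421239_at differed by -0.61 and -0.36 (limma adjusted p = 0.115 and 0.147), and both passed without KO replicate 3 (adjusted p = 0.034 and 0.036).

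Il10ra, the IL-10 binding chain, read 7.59, 6.70 and 6.89 in KO and 7.30, 7.69 and 7.92 in WT at its brightest probe set (1448731_at). KO replicate 1 lay above WT replicate 1, so the groups overlapped. The difference of -0.58 had a 95% interval of -1.17 to 0.01 (limma adjusted p = 0.133), and without KO replicate 1 it was -0.84 and passed (adjusted p = 0.022). The other 2 probe sets were dim, with differences of -0.08 and -0.04, and overlapped too. KO replicate 1 also had the highest neutrophil marker mean, 12.28 against 9.54 and 10.11 in KO replicates 2 and 3, and its part in the Il10ra value was not tested. Il18r1, the IL-18 binding chain, read 9.28, 7.70 and 9.45 in KO and 10.94, 11.19 and 11.08 in WT (1421628_at). It fell by 2.26 ± 0.42 (SE, n = 3 per group; limma adjusted p = 0.0064), or 4.79-fold, and KO replicate 2 was lower than the other KO arrays by 1.67, the widest such gap among the 9 chains.

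**Figure D2:**
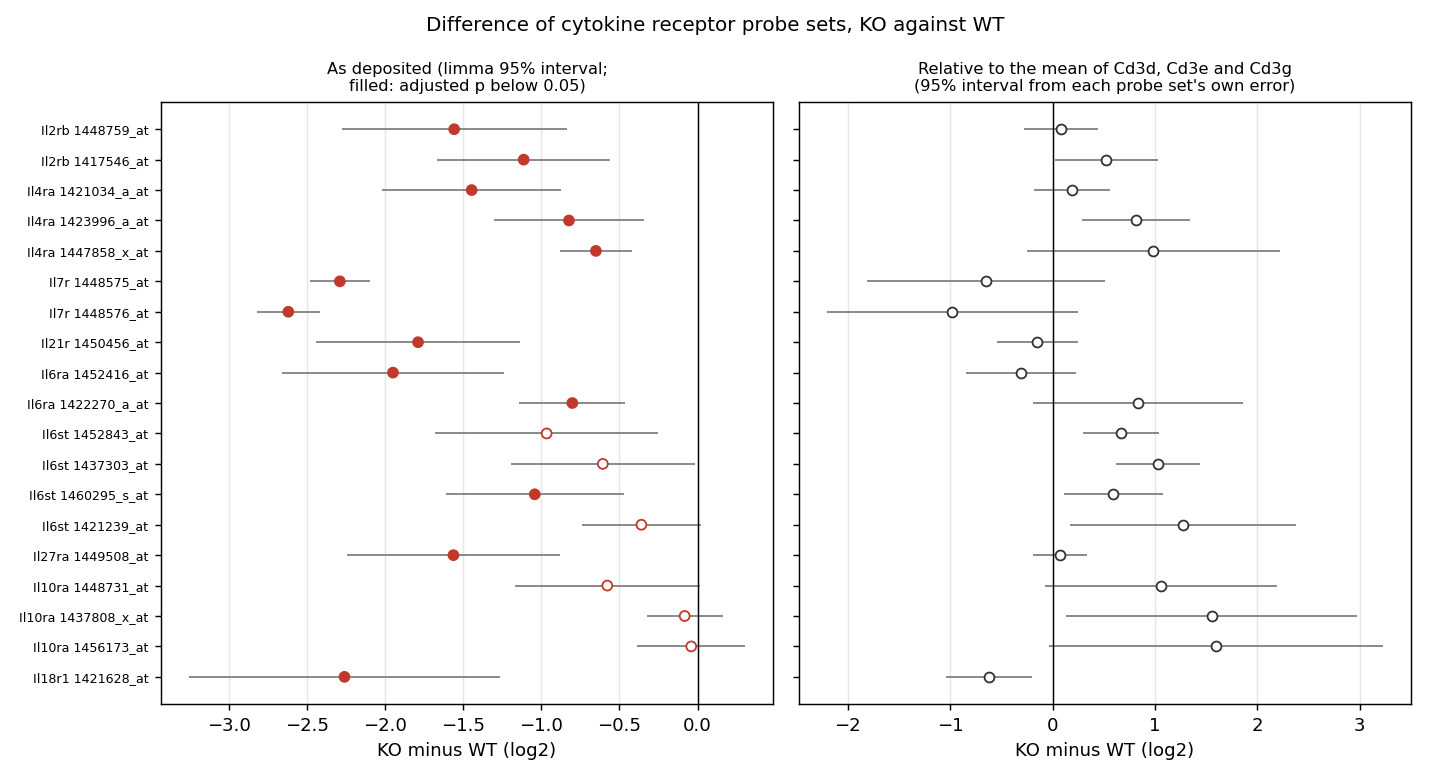
Left, KO minus WT difference (log2) of the 19 receptor probe sets as deposited, with the limma 95% interval; filled points passed the test. Right, the same difference after subtracting the mean of Cd3d, Cd3e and Cd3g on each array, with the 95% interval from each probe set's own error; the intervals of Il6st and Il18r1 leave 0 on opposite sides.

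The chains were next set against the T cell receptor genes by subtracting, on each array, the mean of Cd3d, Cd3e and Cd3g. That mean was 11.42, 10.21 and 11.62 in KO and 12.74, 12.68 and 12.74 in WT, a difference of -1.64. A value above 0 here says that a chain was lowered less than the Cd3 genes, not that it rose. The brightest probe sets of Il2rb, Il27ra, Il4ra, Il21r and Il6ra had intervals around the Cd3 mean that held 0, with relative differences of 0.08 (95% interval -0.28 to 0.44), 0.08 (-0.19 to 0.34), 0.19 (-0.18 to 0.57), -0.15 (-0.55 to 0.24) and -0.31 (-0.85 to 0.23). These intervals use each probe set's own error in a linear model. The dimmer probe sets of these chains lay higher, at 0.52 (0.02 to 1.03) for Il2rb and 0.84 (-0.19 to 1.86) for Il6ra. Those of Il4ra were at 0.81 (0.28 to 1.34) and 0.99 (-0.25 to 2.23). In each the KO arrays lay wholly above the WT arrays, as in 96% of all probe sets after this subtraction. These differences were below the median relative difference of all probe sets, 1.56. Il27ra minus the Cd3 mean was -1.30, -1.24 and -1.54 in KO and -1.46, -1.38 and -1.45 in WT, so the groups overlapped and the low value of KO replicate 2 was gone. Il2rb and Il27ra were also each other's nearest chain, at a root mean square distance of 0.06 over the 6 arrays.

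Il6st and Il10ra had relative differences above 0, and that of Il18r1 was below 0. Il10ra (1448731_at) minus the Cd3 mean was -3.84, -3.51 and -4.73 in KO and -5.45, -4.99 and -4.82 in WT. It was the one chain called higher at its brightest probe set, with a relative difference of 1.06 (limma adjusted p = 0.028), though the interval from its own error, -0.08 to 2.20, held 0. Its dimmer probe sets had relative differences of 1.55 and 1.60. Il6st minus the Cd3 mean was -0.82, -0.88 and -1.21 in KO and -1.64, -1.55 and -1.74 in WT, a relative difference of 0.67 (95% interval 0.30 to 1.04) with no overlap. Its other 3 probe sets had relative differences of 1.03, 0.60 and 1.28, also with every KO array above every WT array. The same order held in 96% of all probe sets. Il18r1 minus the Cd3 mean was -2.15, -2.51 and -2.16 in KO and -1.81, -1.49 and -1.66 in WT, a relative difference of -0.62 (95% interval -1.04 to -0.20) with every KO array lower. The values above 0 for Il6st and the brightest probe set of Il10ra were below the median of all probe sets, 1.56. For Il7r the relative values were -0.99, 0.20 and -1.09 in KO and -0.02, 0.11 and -0.01 in WT, so that KO replicate 2 lay above the WT arrays and the other KO arrays about 1 below them. Its relative difference was -0.65 (95% interval -1.81 to 0.51), and -0.98 at its other probe set. Without KO replicate 2 these were -1.07 and -1.42.

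The relative comparison gave few calls. The KO arrays lay wholly above the WT arrays in 11 of the 19 probe sets and wholly below in 2, against 96% and 0.371% of all probe sets. In limma 6 of the 19 were called higher and 1 lower relative to Cd3, against 92.6% and 0.135% of all probe sets, whose median relative difference was 1.56, with 0.60 for the 19. The 6 became 11 without KO replicate 2, and 2, 3 and 3 without WT replicates 1, 2 and 3. The 1 called lower, Il7r (1448576_at), became 3 without KO replicate 2 and 0 with any other array left out. The relative values of all probe sets share the spread of the Cd3 mean, and limma's shrinkage of errors, which treats probe sets as separate, had infinite prior degrees of freedom here. It gave every probe set the same standard error of 0.47, larger than the own error of each of the 19 except the 2 dimmer Il10ra probe sets, and treated that error as known. With each probe set's own error 0 of the 19 passed after adjustment over all probe sets, against 0.522% called higher and 0.0111% lower. Of the 19, 8 had an unadjusted p below 0.05. The share of all probe sets with such a p is not given, so this count cannot be set against a background. With that error and without KO replicate 2, 8 were called higher and 3 lower, against 91.3% and 0.742% of all probe sets. The 3 were both Il7r probe sets and Il18r1.

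**Figure D3:**
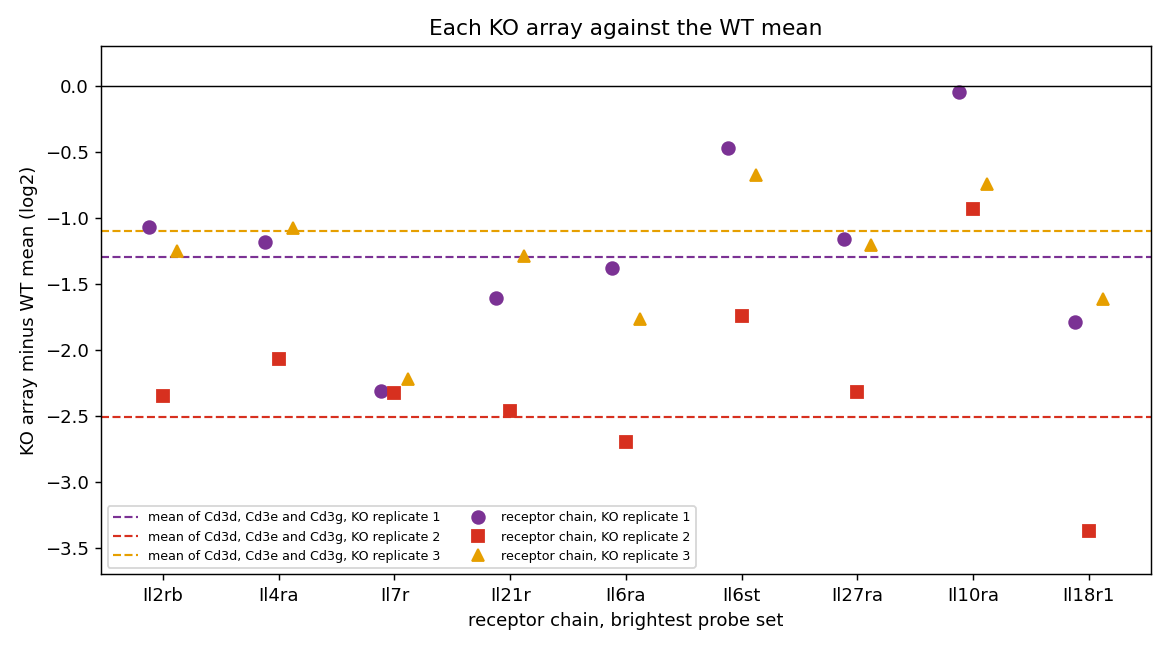
Each KO array minus the WT mean (log2) for the 9 chains at their brightest probe set, with dashed lines at the value of the Cd3 mean in the same array. In KO replicate 2 most chains, Il7r among them at -2.33, lie near its Cd3 line at -2.51, and Il18r1 reaches -3.37. In KO replicates 1 and 3 Il7r is at -2.32 and -2.22, below their Cd3 lines at -1.30 and -1.10.

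Profiles over the 6 arrays were compared after centring each gene on its WT mean. Among 16329 genes the transcription factor Lef1 was closest to Il7r, at a root mean square distance of 0.07. It read 10.28, 10.20 and 10.46 in KO and 12.70, 12.60 and 12.55 in WT. Jakmip1 and Fgf13 followed at 0.13 and 0.14. They share with Il7r a large KO difference and a KO replicate 2 that does not stand apart. Both traits follow from picking genes by this distance. No chain rose, so no gene was sought for a rise.

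Among 21 other measured receptor chains 5 fell, 4 rose and 12 did not pass, against 18.6% of all genes in each direction. Il18rap, the partner of Il18r1, fell by 1.60 ± 0.30 (SE, n = 3 per group) and Il2ra, the high-affinity chain of the IL-2 receptor, by 1.42 ± 0.20. Il10rb, the partner of Il10ra, and Il17ra and Ifnar1 fell by 0.67 ± 0.13, 0.66 ± 0.12 and 0.53 ± 0.11. Il17rb, Il1r1, Ifngr2 and Ifnar2, chains for IL-25, IL-1 and the interferons, rose by 0.95 ± 0.21, 0.88 ± 0.09, 0.88 ± 0.14 and 0.74 ± 0.12. Thus both chains of the IL-18 receptor fell, and the chains of the type I interferon receptor moved in opposite directions, though the Ifnar1 call was lost after scaling to the hybridization controls. Under that scaling 2 of the 5, Il18rap and Il2ra, still fell. It raised every KO minus WT difference by 0.37, so it could not test the 4 that rose.

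Of 10 measured JAK kinases and STAT factors 8 fell, 1 rose and 1 did not pass, against 18.6% of all genes in each direction. After scaling to the hybridization controls 2 of the 8, Stat4 and Jak1, still fell. Stat4, which acts below IL-12, fell by 1.55 ± 0.21 (SE, n = 3 per group), and Jak1, used by every gamma chain and gp130 receptor, by 1.30 ± 0.18. Jak3, the kinase bound to the common gamma chain, fell by 0.71 ± 0.16, which did not pass with WT replicate 2 removed (adjusted p = 0.054), and Stat6, below Il4ra, by 0.68 ± 0.16, which did not pass with WT replicate 1 or 2 removed (adjusted p = 0.062 and 0.054). Stat5b did not pass with KO replicate 2 or 3 or any one WT replicate removed (adjusted p from 0.052 to 0.083), nor Stat2 with WT replicate 1 removed (adjusted p = 0.056). Stat5a rose by 0.37 ± 0.09, which did not pass with KO replicate 1 or 3 or WT replicate 2 removed (adjusted p from 0.053 to 0.081), and Stat3, below Il6st, differed by -0.66 (limma adjusted p = 0.056). Of 11 SOCS and PIM genes, which cytokines induce and several of which feed back on the receptors, 5 fell and 0 rose, against the same 18.6% of all genes each way, and 2 of the 5, Pim2 and Socs3, still fell under that scaling. They were Pim2, Socs3, Socs1, Socs5 and Pim3, by 1.26 ± 0.20, 1.22 ± 0.27, 0.91 ± 0.19, 0.50 ± 0.10 and 0.38 ± 0.09, and the Pim3 call was lost without WT replicate 1 (adjusted p = 0.052).

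Among 6 measured adaptors and kinases used by receptors of the IL-1 and Toll-like families, 2 rose and 2 fell, against 18.6% of all genes in each direction. After scaling to the hybridization controls neither of the 2 that fell passed. That scaling raised every difference by 0.37, so it could not test the 2 that rose. Irak3, an inhibitory kinase-like protein of macrophages, rose by 2.09 ± 0.16 (SE, n = 3 per group) and Tirap, an adaptor of Toll-like receptors that the IL-18 receptor does not need, by 0.89 ± 0.11. Traf6 fell by 0.62 ± 0.08 and the adaptor Myd88 by 0.42 ± 0.11, the last call being lost without KO replicate 3 or any one WT replicate (adjusted p from 0.055 to 0.081). Among 13 ligand genes 5 rose and 1 fell, beside 18.6% of all genes each way. Il12a, Il6, Il15, Tslp and the IL-27 subunit Ebi3 rose by 2.23 ± 0.20, 1.62 ± 0.37, 1.53 ± 0.22, 1.51 ± 0.16 and 1.04 ± 0.29, and Il2 fell by 1.19 ± 0.12. The Il6 call was lost without WT replicate 2 (adjusted p = 0.056) and the Ebi3 call without KO replicate 3 or any one WT replicate (adjusted p from 0.077 to 0.11). Of the genes called, Il6, Tslp and Il2 were dim, with mean levels below the median of all probe sets. Il21, Il10, Il18, Il4, Il7, Il13 and Il9 differed by -1.07, -0.79, 0.47, 0.16, 0.12, 0.05 and -0.02 and did not pass. Myeloid cells make Il12a, Il6, Il15 and Ebi3, and monocyte and macrophage markers averaged 8.31 to 8.82 in these KO arrays and 5.77 to 6.08 in WT, a part that was not tested.

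**Figure D4:**
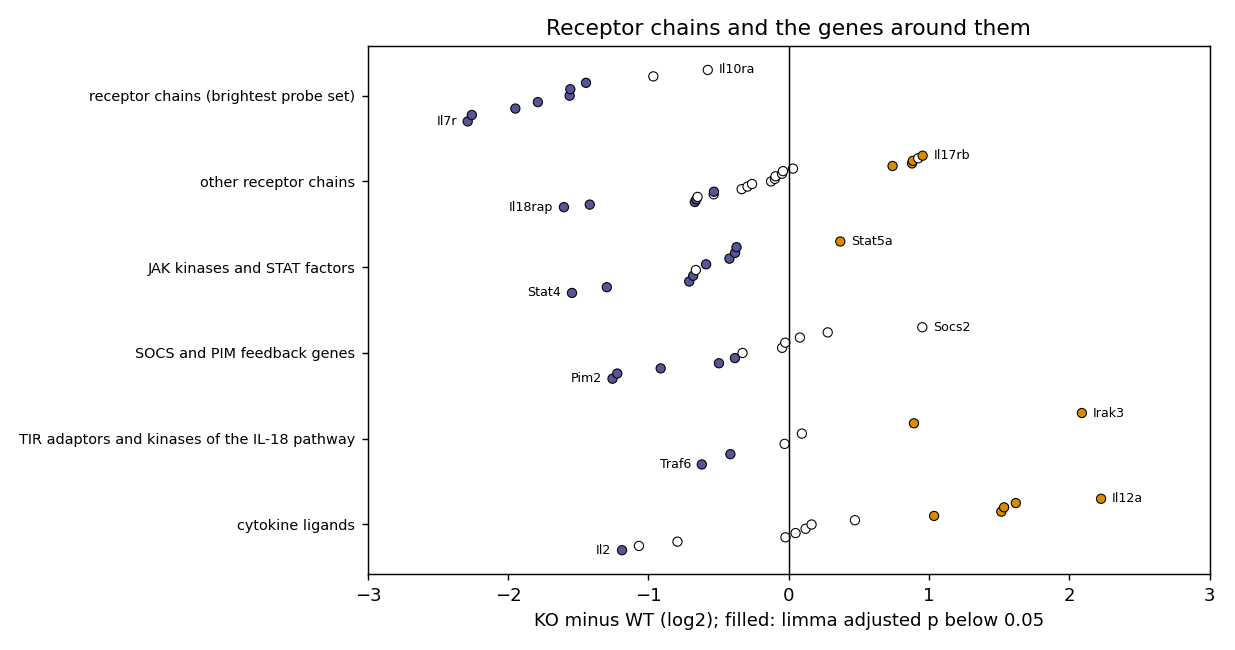
KO minus WT difference (log2) at the brightest probe set of each gene, for the 9 receptor chains and 5 lists around them; filled points passed the limma test, blue lower and orange higher in KO. The receptor chains all lie below 0, JAK and STAT genes mostly do, and the ligands reach from -1.19 for Il2 to 2.23 for Il12a.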

How the data were processed

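The authors deposited log2 probe-set intensities, made with RMA (version not given) per the submitters' processing notes, from Affymetrix 1-colour arrays. Per the labels' protocols, RNA was amplified from mixed poly(T) and random priming, with a biotin label. RMA corrects background, quantile-normalizes the arrays and summarises probes, and it understates differences of dim probe sets. The values were used unchanged. Array medians were 5.70 to 5.77, and the number of arrays limits the precision. Of 45101 probe sets 64 array controls were left out, and 45037 were tested. The platform annotation supplied gave 1 gene for 34945, several for 932 and none for 9160. For 18193 genes the brightest probe set, by mean level over the arrays, stood for the gene.

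Arrays were grouped by genotype, 3 KO and 3 WT, each from its own mouse. R 4.3.3 and limma 3.58.1 (lmFit, eBayes) tested genotype, with Benjamini-Hochberg adjustment over all probe sets and a threshold of 0.05, two-sided. Rose, fell and passed refer to that threshold. The same fit was run after subtracting the Cd3 mean, and repeated as an ordinary linear model, which was chosen after seeing the data. The fit was tested on simulated data. The rule for named genes was all chains with every probe set, the Cd3 genes, up to 4 changed members of each list by size, members that a count of 5 or fewer refers to, and the 3 genes nearest to Il7r. Single genes named beside this, such as Cd79a, Ebf1, Ms4a1, Stat3 and ligands that did not pass, were picked after their values were seen. Members and lists were chosen with earlier results of these data known. Alternatives were a filter on dim probe sets, 3 normalizations, trend with robust errors, array weights, a replicate block, other thresholds, each array left out, gene means over probe sets and other denominators.

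The labels share replicate numbers between genotypes without saying that they mark a litter or day.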

Additional observations from a re-analysis of the deposited data

How the results depend on the processing

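The count of receptor probe sets that fell, 13 as reported, ran from 11 to 15 on removing single arrays, and that of chains at their brightest probe set, 7 as reported, from 7 to 9. In an ordinary linear model without moderation, chosen after seeing the data, 7 probe sets and 4 chains fell. The shares of all probe sets that fell in these settings are not given, so these counts cannot be set against a background. Scaling to the hybridization controls, which averaged 9.85 in KO and 10.21 in WT, moved the median of all probe sets by 0.37 and gave 88.1% higher among changed probe sets, against 47.2% as deposited. Under it 9 of the 19 receptor probe sets and 7 chains still fell, against 5.19% of all probe sets. Of the 61 measured pathway genes 21 fell and 12 rose as reported, against 18.6% of all genes in each direction. Without moderation 13 fell, and the share of all genes that fell in that fit is not given. Under the scaling 7 of the pathway genes fell and 23 rose, while 17309 of all 45037 probe sets rose. Signs turned at dim probe sets that had not passed. Il10ra 1456173_at was at 0.33 and 1437808_x_at at 0.28 under that scaling, and Il6st 1421239_at at 0.0067. Il10ra 1456173_at was also at 0.026 after a repeated quantile normalization, and ran from -0.17 without KO replicate 2 to 0.10 without KO replicate 3. Relative to Cd3, the 6 probe sets called higher became 3 without dim probe sets, 13 with array weights and 0 without moderation, and 2 to 11 on removing single arrays. The 1 called lower became 4 with array weights, 3 without moderation and KO replicate 2, and 0 with trend and robust errors, without moderation, against Cd3d or Cd3e alone or against 10 T cell markers, and 0 to 3 on removing single arrays. Against Cd3g alone Il2rb and Il27ra turned to -0.045 and -0.050, and against the T cell markers Il21r and Il6ra to 0.20 and 0.035.

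No pairing of arrays by replicate number was seen. Deviations of same-numbered arrays from their group means correlated at 0.10, -0.24 and -0.20, and 2 of the 6 arrays correlated best with their own number. With 3 arrays per group this check cannot exclude a shared litter or day. With the replicate block 13 receptor probe sets and 7 chains fell, and 6 probe sets were called higher and 1 lower relative to Cd3. Of the pathway genes 20 fell and 12 rose. The shares of all probe sets and genes called with the block are not given, so these counts cannot be set against a background. The causes of these changes were not tested. RMA values carry no detection calls, so a dim probe set that did not pass may hide a difference.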
